A study of Mus musculus with 3 samples.

Results

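Blood flow and cell contact shape a small set of endothelial genes, of which 10 were followed here across the cells of the injured mouse femoral artery. They were found by gene symbol among the 32285 genes of the count matrices, and all 10 matched: the transcription factors Klf2, Klf4 and Sox17, the nitric oxide synthase Nos3, the vasoconstrictor precursor Edn1, the caveolar protein Cav1, the junction proteins Cldn5 and Cdh5, and the connexins Gja4 and Gja5. The rule by symbol uses no measured value.

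Endothelial cells sense the drag of blood on their surface. Steady laminar flow acts through a kinase chain that ends in MEF2 factors and induces Klf2 and Klf4, which in turn keep Nos3 expressed and restrain inflammatory genes. Tight junctions (Cldn5) and adherens junctions (Cdh5) seal the cell layer, and the connexins Gja4 (Cx37) and Gja5 (Cx40), with the factor Sox17, are known as arterial endothelial genes. Passing a wire through an artery strips its endothelium, and the surface is covered again by cells that remain or grow in.

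The study compared femoral arteries of 8-week-old wild-type (WT) male mice after a sham operation (Sham) with arteries taken 2 days (D2) or 7 days (D7) after a wire-induced femoral artery injury. When the sham arteries were taken is not given in the labels. Live single cells, sorted by flow cytometry with the dead-cell dye DAPI, were pooled from 6 mice into 1 droplet library per group, so there is no replicate and no test between groups: every interval below is a 95% interval for counting error in these libraries alone. A level is the number of UMIs (unique molecular identifiers, 1 per captured transcript) of a gene per 1e6 UMIs summed over a class of cells in a library, abbreviated CPM.

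After filtering, 7346 Sham, 11034 D2 and 10944 D7 cells remained, with median depths of 4080, 6645 and 6764.5 UMIs. Cells were clustered without the 10 genes, and classes were named from other markers. The blood endothelial class, called endothelial-like, held 468, 91 and 391 cells, and a lymphatic-endothelial-like class held 315, 30 and 140. All 12 endothelial markers were detected in the endothelial-like cells of each library, among them Pecam1 at 1539, 1194 and 1294 CPM. Its cells had a median of 3444.5 (Sham), 12815 (D2) and 5534 (D7) UMIs. Neutrophil markers also differed between libraries: the 11 genes of that list summed to 471, 2577 and 1482 CPM in endothelial-like cells, with Ly6g at 0 in all libraries and Csf3r, Cxcr2 and Mmp9 also at 0 in Sham. The list includes S100a11, and its sum need not be neutrophil RNA. In Sham Schwann-like cells it was 561 CPM, although 8 of the 11 genes, among them S100a8 and S100a9, had no UMI. An upper estimate of the share of free RNA in these cells was 15.2%, 33.9% and 27.7%. Pairs of libraries shared 21 to 29 cell barcodes.

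The promoter windows of the 2 flow-induced factors and the 2 connexins are shown because these pairs differed between the libraries in different ways. Windows from a RefSeq table (GRCm38.p6) were used for the 7 of the 10 genes that matched by symbol, and those of Nos3, Cdh5 and Sox17 were not used here. Each window runs 5′ to 3′ on the gene's strand from 250 to 31 bases before the RefSeq start, and capitals mark matches to 6 motifs searched on both strands. The Klf2 window is chr8:72318812-72319031 (+), that of Klf4 chr4:55532506-55532725 (-), that of Gja4 chr4:127314070-127314289 (-) and that of Gja5 chr3:97032152-97032371 (+).
Klf2: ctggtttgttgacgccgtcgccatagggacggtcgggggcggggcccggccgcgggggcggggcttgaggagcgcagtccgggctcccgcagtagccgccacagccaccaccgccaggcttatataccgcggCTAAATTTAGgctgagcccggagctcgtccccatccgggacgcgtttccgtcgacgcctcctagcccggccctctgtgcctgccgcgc
Klf4: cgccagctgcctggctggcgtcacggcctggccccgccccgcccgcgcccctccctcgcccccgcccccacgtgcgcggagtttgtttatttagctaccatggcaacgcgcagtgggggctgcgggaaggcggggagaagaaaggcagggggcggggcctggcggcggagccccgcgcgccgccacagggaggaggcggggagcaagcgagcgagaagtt
Gja4: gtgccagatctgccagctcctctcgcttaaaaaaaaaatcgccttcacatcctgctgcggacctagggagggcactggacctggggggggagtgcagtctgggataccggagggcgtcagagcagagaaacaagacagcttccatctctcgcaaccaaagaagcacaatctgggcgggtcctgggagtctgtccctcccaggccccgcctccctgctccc
Gja5: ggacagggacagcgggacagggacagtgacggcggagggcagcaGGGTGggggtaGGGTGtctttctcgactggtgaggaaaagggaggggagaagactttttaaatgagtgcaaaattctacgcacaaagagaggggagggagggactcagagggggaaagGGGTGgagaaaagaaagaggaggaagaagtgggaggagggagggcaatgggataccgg

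The motifs were CACCC (the core bound by Krüppel-like factors, found in 47.8% of 32851 windows of this length), the MEF2 motif (2.60%), AGATAA (9.04%), TGANTCA (6.12%), AACAAT (8.65%) and TATAAA (9.95%). The Klf2 window held 1 match to the MEF2 motif, starting 118 bases before the start. The Gja5 window held 3 CACCC matches on the opposite strand, at 206, 195 and 88 bases before the start. The windows of Klf4 and Gja4 held none of these letters. A match is a description of sequence and was not tied to binding in these data.

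The shear-induced factors were lower in endothelial-like cells of both injured libraries. Klf2 (mm10 chr8:72319033-72321656) stood at 927 CPM in Sham (interval 884 to 972) and 289 at D2 (262 to 318), with 424 for D7 (400.4 to 449). Its 3 intervals did not overlap, with Sham highest and D2 lowest. The ratio to Sham was 0.312 at D2 (0.280 to 0.347) and 0.458 at D7 (0.425 to 0.493). Klf4 (chr4:55527143-55532466), a close relative of Klf2 with overlapping targets, stood at 502 CPM in Sham (471 to 535) and 84.8 at D2 (70.5 to 101), and the D7 level was 111 (99.2 to 125). Both injured libraries lay far below Sham and close to each other. Its ratio to Sham was 0.169 at D2 (0.139 to 0.204) and 0.222 at D7 (0.194 to 0.253).

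Fewer cells carried these transcripts at equal depth. With every cell thinned to 1000 UMIs, which left out 49 Sham, 2 D2 and 18 D7 cells, a Klf2 UMI was found in 46.8% of Sham, 25.8% of D2 and 27.6% of D7 endothelial-like cells. Without thinning, when D2 cells are deepest, the shares were 72.6%, 69.2% and 61.6%. For Klf4 the thinned shares were 32.9%, 11.2% and 14.2%, against 59.2%, 46.2% and 35.3% unthinned. B-like cells, which hold little Klf4, had a thinned share of 5.38%, 2.46% and 4.56% at median depths of 4114.5, 4573 and 3505 UMIs. They give no background for Klf2, which they carry. The 2 factors also met in the same cells: among thinned Sham cells a Klf4 UMI was found in 43.9% of the 196 with Klf2 and in 23.3% of those without. At D7 the corresponding shares were 26.2% of 103 cells and 9.63%.

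Both factors are also known to respond when cells are dissociated from tissue, so the summed level of 19 other dissociation-response genes (Fos, Jun, Hspa1b and others) is given beside them. In endothelial-like cells that sum was 4632 CPM in Sham, 3284 at D2 and 3313 at D7, and was thus highest in Sham, like Klf2 and Klf4. The part of this response in their levels was not tested over the whole class. Within blood endothelial sub-clusters the sum was also mostly lower at D7 than in Sham, at 4301 and 2477 CPM in sub-cluster 1, 2772 and 1875 in sub-cluster 2, 3015 and 1986 in sub-cluster 3, 4893 and 2128 in sub-cluster 6, 5939 and 2112 in sub-cluster 7 and 20112 and 10911 in sub-cluster 10. It was similar in sub-cluster 8, at 2624 and 2607 CPM. Arterial-like sub-cluster 9 differed from these, with 1791 CPM in Sham and 4564 at D7, while Klf2 stood there at 1276 and 616 CPM and Klf4 at 356 and 67.4. Leaving out the sub-clusters led by leukocyte transcripts moved the Klf2 ratio of D2 to Sham to 0.219, and that of D7 to D2 from 1.47 to 2.02. With an estimate of free RNA subtracted the D2 ratio to Sham was 0.146 for Klf2 and 0.0478 for Klf4, and in cells thinned to 1000 UMIs, which then weigh alike, it was 0.435 and 0.259.

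**Figure D1:**
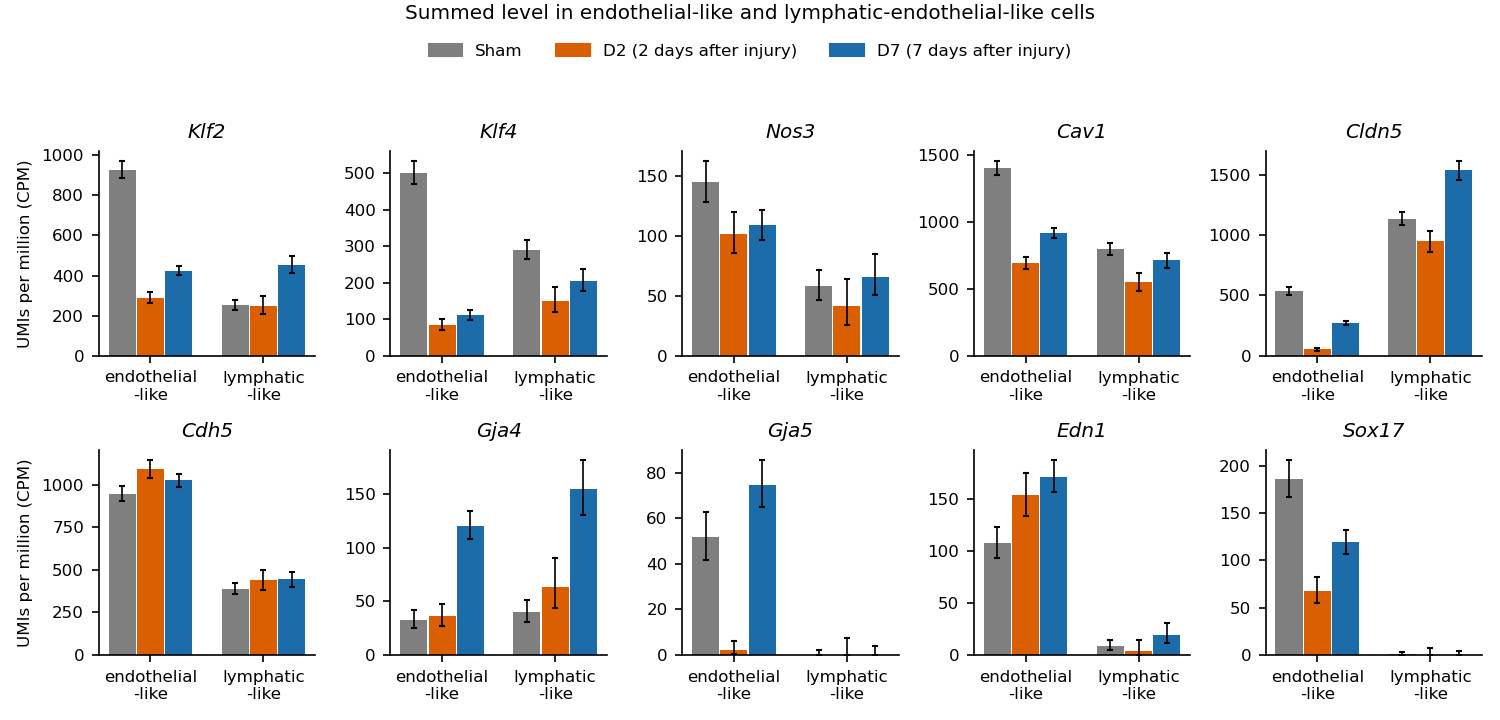
Summed level (CPM, linear axes starting at 0) of each of the 10 genes in endothelial-like and lymphatic-endothelial-like cells of the Sham, D2 and D7 libraries. Bars are 1 pooled library each and black lines are 95% intervals for counting error. Klf2, Klf4 and Cldn5 are highest in Sham among the endothelial-like bars, whereas Gja4 is highest at D7 in both classes.

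Among the regulators of vessel tone, neither Nos3 nor Edn1 differed 2-fold between libraries. Nos3 (chr5:24364810-24384474), which makes nitric oxide in endothelium, stood at 145 CPM in Sham (128 to 163) and 102 at D2 (86.1 to 120), while D7 stood at 109 (96.9 to 122). Sham was highest, and the intervals of D2 and D7 overlapped. The ratio to Sham was 0.705 at D2 (0.573 to 0.864) and 0.753 at D7 (0.637 to 0.890). With cells thinned to 1000 UMIs, which then weigh alike, the D2 ratio was 1.04. The lower level at D2 thus depends on how cells of unequal depth are weighed. Edn1 (chr13:42301476-42307990), which encodes the precursor of the vasoconstrictor endothelin-1 and is repressed by Klf2, stood at 107 CPM in Sham (93.0 to 123) and 153 at D2 (134 to 175), with 171 for D7 (156 to 187). Sham was lowest, and the intervals of D2 and D7 overlapped. The Edn1 ratio to Sham was 1.43 at D2 (1.17 to 1.73) and 1.60 at D7 (1.35 to 1.89). Under the alternative settings described at the end, the D2 ratio ran from 1.05 to 1.87, so its size depends on the processing. A link between the levels of Edn1 and Klf2 was not tested. Few cells carried the Edn1 transcripts: at 1000 UMIs a cell, 7.88%, 14.6% and 10.7% of Sham, D2 and D7 cells had one (16.0%, 52.7% and 25.8% unthinned), and 3 cells held 28.6% of the D7 UMIs. No thinned B-like cell had an Edn1 UMI in any library.

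Cav1 (chr6:17306335-17341452), the scaffold of caveolae and an inhibitor of Nos3, was lower after injury. It stood at 1404 CPM in Sham (1351 to 1458) and 691 at D2 (649 to 735), and the D7 level was 917 (882 to 953). No intervals overlapped, and D2 was lowest. Its ratio to Sham was 0.492 at D2 (0.457 to 0.529) and 0.653 at D7 (0.618 to 0.690).

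The 2 junction genes differed from each other. Cldn5 (chr16:18776847-18778262), the main claudin of endothelial tight junctions, stood at 534 CPM in Sham (502 to 568) and 55.4 at D2 (44.0 to 68.8), while D7 stood at 272 (253 to 292). D2 was lowest and D7 lay between the others, with no overlap. The ratio to Sham was 0.104 at D2 (0.0816 to 0.130) and 0.509 at D7 (0.462 to 0.560), and D7 was 4.91 times D2 (3.90 to 6.25). At 1000 UMIs a cell, 31.0% of Sham, 4.49% of D2 and 13.4% of D7 endothelial-like cells had a Cldn5 UMI, against 0%, 0% and 0.260% of B-like cells. Cdh5 (chr8:104101625-104144511), which encodes VE-cadherin of adherens junctions, stood at 949.6 CPM in Sham (906 to 995) and 1094 at D2 (1041 to 1149), with 1028 for D7 (990.1 to 1066). By these sums Cdh5 varied least of the 10 genes, with ratios to Sham of 1.15 (1.08 to 1.23) and 1.08 (1.02 to 1.15). Under the alternative settings described at the end, these ratios reached 1.48 at D2 and 1.27 at D7.

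The arterial genes were few in transcripts and differed in pattern. Gja5 (chr3:96904693-97077416), the connexin Cx40, stood at 51.5 CPM in Sham (97 UMIs in 42 cells) and 2.05 at D2 (3 UMIs in 2 cells), and the D7 level was 74.7 (206 UMIs in 37 cells). D2 was low, and Sham and D7 were both far above it. Of the 33 Gja5 UMIs of the D2 library, 16 lay in neutrophil-like cells (0.793 CPM) and 12 in unnamed cluster 15 (5.98 CPM), whose cells are not part of the endothelial-like sum. The ratio to Sham was 0.0398 at D2 (0.00806 to 0.120) and 1.45 at D7 (1.13 to 1.87), and the D7 level was 36.4 times that at D2 (12.3 to 178). Gja4 (chr4:127311421-127314039), the connexin Cx37, stood at 32.4 CPM in Sham (24.8 to 41.6) and 36.2 at D2 (27.1 to 47.4), while D7 stood at 120.4 (108 to 134). Sham and D2 overlapped and D7 lay above both. Thinned to 1000 UMIs a cell, D2 was 2.14 times Sham. At D7 the ratio was 3.72 to Sham (2.82 to 4.97) and 3.32 to D2 (2.48 to 4.53). Sox17 (chr1:4490931-4497354), a SoxF factor that sets arterial identity upstream of Notch genes, stood at 186 CPM in Sham (167 to 207) and 67.7 at D2 (55.0 to 82.4), with 119 for D7 (106 to 133). Its intervals did not overlap and followed the order of Cldn5, with ratios to Sham of 0.364 (0.288 to 0.456) and 0.640 (0.549 to 0.746).

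**Figure D2:**
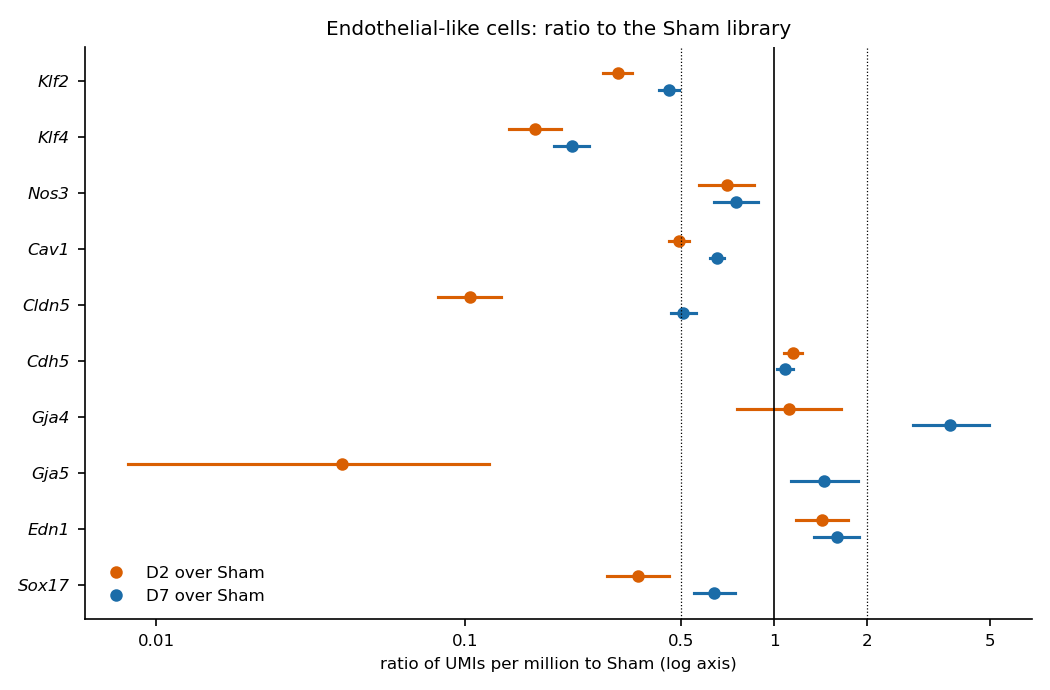
Ratio of the level in D2 (orange) and D7 (blue) to Sham in endothelial-like cells for each gene, on a log axis. Points are ratios, lines are exact 95% intervals for counting error, the solid line marks 1 and the dotted lines 0.5 and 2. At D2, 6 genes lie beyond the lower dotted line, and at D7 only Klf2 and Klf4 do, with Gja4 alone beyond the upper one.

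Counts were read with a fixed rule: a gene stands apart where its level, with 1 CPM added, differs at least 2-fold and reaches 50 CPM and 20 UMIs in the higher library. From Sham to D2, 6 of the 9 genes that reached the minimum were lower (Klf2, Klf4, Cav1, Cldn5, Gja5 and Sox17) and 0 were higher, while 10.8% of 4225 measured genes were lower and 10.3% higher. Gja4 did not reach the minimum in that pair. From Sham to D7, 2 of 10 were lower (Klf2 and Klf4) and 1 higher (Gja4), against 6.49% and 5.86% of 4161 genes. From D2 to D7, 3 of 10 were higher (Cldn5, Gja4 and Gja5) and 0 lower, against 2.21% and 1.17% of 4020 genes. The 3 comparisons share libraries and are not independent.

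The endothelial-like cells of the 3 libraries were not the same mixture. They fell into 14 sub-clusters together with the lymphatic cells. In Sham, capillary-like cells (sub-cluster 1, led by Timp4 and Car4) made up 35.9% of the endothelial-like class, but 5.49% at D2 and 5.63% at D7. Unnamed sub-cluster 3, led by Tacr1, Aplnr, Col15a1 and Apln, held 3.42%, 35.2% and 30.7%, and venous-like sub-cluster 2 held 10.0%, 25.3% and 26.1%. The 11 capillary markers summed to 24062 CPM in Sham, 10604 at D2 and 9509 at D7. The part of this makeup in the class levels was not tested, so the levels within sub-classes are set out next.

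**Figure D3:**
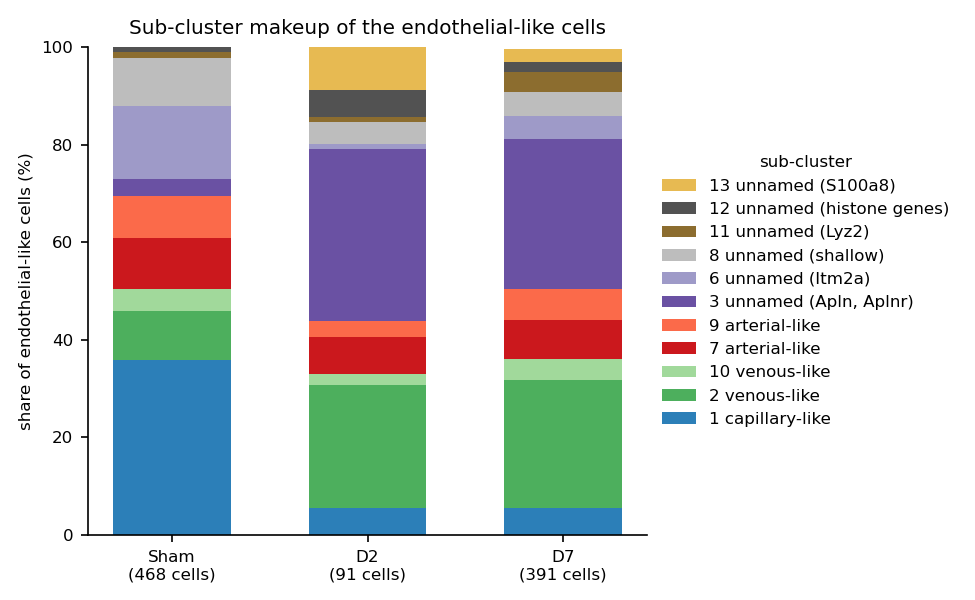
Share (%) of the endothelial-like cells in each of 11 sub-clusters for 468 Sham, 91 D2 and 391 D7 cells. Capillary-like cells fill 35.9% of the Sham bar against 5.49% and 5.63% of the D2 and D7 bars, where unnamed sub-cluster 3 is the largest, at 35.2% and 30.7%. The 2 D7 cells that joined a lymphatic-like sub-cluster are not drawn.

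Among the blood endothelial sub-clusters, 3 named sub-classes could be compared: arterial-like (sub-clusters 7 and 9, with 89 Sham, 10 D2 and 57 D7 cells), capillary-like (168, 5 and 22 cells) and venous-like (sub-clusters 2 and 10, with 68, 25 and 119 cells). Of the 57 D7 arterial-like cells, 56 were of the endothelial-like class and 1 of the lymphatic-endothelial-like class. The D2 values rest on 5 to 25 cells each. The venous-like sub-class was a different mixture in each library: sub-cluster 10, led by Sele, Selp, Atf3 and Fos, held 21 of its Sham, 2 of its D2 and 17 of its D7 cells. In Sham, the level of Klf2 followed the order venous-like (1560 CPM), arterial-like (1174), capillary-like (602) and lymphatic-like (256), and each step was larger than counting error. In the venous-like sub-clusters taken singly, Klf2 in Sham stood at 1324 CPM in sub-cluster 2 and 2217 in sub-cluster 10, and Klf4 at 558 and 1465. Their dissociation-response sums in Sham were 2772 and 20112 CPM, so the venous-like lead includes sub-cluster 10 with its high sum. Whether sub-cluster 2 alone stood above arterial-like cells beyond counting error was not tested. Over the sub-classes Klf4 followed the same order as Klf2, at 797, 449, 399 and 296 CPM. For Klf4, arterial-like and capillary-like cells did not differ beyond counting error (ratio 1.13, 0.911 to 1.39). Nos3 was also highest in venous-like cells at 292 CPM, then arterial-like at 199, capillary-like at 72.8 and lymphatic-like at 57.9, the last 2 not differing beyond counting error.

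The structural genes had other orders in Sham. Cav1 was highest in capillary-like cells at 2128 CPM, followed by arterial-like (1561), venous-like (968) and lymphatic-like cells (804). Cdh5 was likewise highest in capillary-like cells at 1354 CPM and lowest in lymphatic-like cells at 393. Cldn5 was high in lymphatic-like (1160 CPM), arterial-like (1115) and capillary-like cells (896.5) and near absent in venous-like cells, where 7 UMIs gave 24.4 CPM. The arterial-like cells led for Sox17 (479 CPM), Edn1 (422), Gja5 (274) and Gja4 (119). Gja5 had no UMI in Sham capillary-like, venous-like or lymphatic-like cells, and Edn1 had 1 UMI in 168 capillary-like cells.

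Klf2 and Klf4 were lower at D7 than in Sham in each of these 3 blood endothelial sub-classes. Klf2 stood at 1174 CPM (Sham), 265 (D2) and 621 (D7) in arterial-like cells, at 1560, 382 and 669 in venous-like cells, and at 602, 47.0 and 161 in capillary-like cells. Sham was highest and D2 lowest in all 3, but in capillary-like cells the D2 value rests on 2 UMIs in 5 cells. The Klf2 ratio of D7 to D2 there was 3.42 (0.795 to 30.8), an interval that includes 1. The dissociation-response sum was likewise lower at D7 in the sub-clusters of these sub-classes other than sub-cluster 9, by the values given above, and its part was not tested. The ratio of D7 to Sham was 0.529 in arterial-like (0.455 to 0.613), 0.429 in venous-like (0.372 to 0.494) and 0.267 in capillary-like cells (0.148 to 0.447). Klf4 stood at 449, 275 and 152 CPM in arterial-like, 797, 122 and 218 in venous-like and 399, 47.0 and 129 in capillary-like cells. In arterial-like cells D2 thus lay above D7, unlike in the whole class, and its ratio to Sham was 0.612 (0.394 to 0.921). For Klf4 the ratio of D7 to Sham was 0.338 (0.255 to 0.446), 0.274 (0.217 to 0.345) and 0.323 (0.164 to 0.575). In venous-like sub-cluster 2 alone it was 0.569 for Klf2 (0.482 to 0.672) and 0.331 for Klf4 (0.244 to 0.446), and in sub-cluster 10 it was 0.171 (0.119 to 0.239) and 0.229 (0.155 to 0.332). In sub-cluster 3, with 16 Sham and 120 D7 cells, the corresponding ratios were 0.278 for Klf2 (0.201 to 0.391) and 0.178 for Klf4 (0.104 to 0.314).

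Part of the class difference in Cldn5 was present within sub-classes. It stood at 1115 CPM in Sham, 314 at D2 and 655 at D7 in arterial-like cells, and at 896.5, 329 and 525.5 in capillary-like cells. D2 was lowest in both, but in capillary-like cells the ratio of D7 to D2 was 1.60 (0.867 to 3.13), an interval that includes 1. The D7 ratio to Sham was 0.587 in arterial-like (0.506 to 0.681) and 0.586 in capillary-like cells (0.428 to 0.787), close to the 0.509 of the whole class. In sub-cluster 3, which held 32 of the 91 D2 cells but only 16 Sham cells, Cldn5 stood at 735 CPM in Sham, 41.0 at D2 and 257 at D7. Cav1 differed little in capillary-like cells, at 2128, 1740 and 1952 CPM, but was lower in venous-like cells at 968, 406 and 516 CPM. The ratio of D7 to Sham was 0.917 in the former (0.781 to 1.07) and 0.533 in the latter (0.449 to 0.633).

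The connexins were read best in arterial-like cells. Gja4 stood there at 119 CPM in Sham (85.0 to 162) and 186 at D2 (112 to 291), and the D7 level was 403 (351 to 461). D7 was above both others, at 3.39 times Sham (2.41 to 4.88). The 2 arterial-like sub-clusters differed in size of effect: D7 was 8.61 times Sham in sub-cluster 7 (4.40 to 19.3) and 1.82 times in sub-cluster 9 (1.20 to 2.84). Sub-cluster 9 is led by Gkn3, Acta2 and Mgp. The leading genes of sub-cluster 7 include Nebl, Sema3g and Alpl, but also the fibroblast markers Col3a1 and Col1a1. The part of fibroblast RNA in its levels was not tested. Gja5 stood at 274 CPM in Sham, 9.81 at D2 (1 UMI in 10 cells) and 336 at D7, with D7 at 1.23 times Sham (0.949 to 1.60). Its transcripts were densest in sub-cluster 9, at 386 CPM in Sham and 465 at D7, against 104 and 153 in sub-cluster 7.

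Edn1 differed by vessel type. In arterial-like cells Edn1 stood at 422 CPM in Sham, 226 at D2 and 441 at D7, with a D7 ratio to Sham of 1.04 (0.844 to 1.30). D2 was lowest there, unlike in the whole class, where Sham was lowest. In venous-like cells Edn1 stood at 139, 295 and 251 CPM, Sham being lowest. The ratio to Sham in these cells was 2.12 at D2 (1.45 to 3.14) and 1.80 at D7 (1.26 to 2.64). Sox17 in arterial-like cells stood at 479, 206 and 330.1 CPM, with a D7 ratio of 0.690 (0.554 to 0.859). Cdh5 in arterial-like cells stood at 714, 962 and 1163 CPM, highest at D7, with a ratio of 1.63 (1.40 to 1.90). Nos3 in venous-like cells stood at 292, 188 and 220.4 CPM, with a D7 ratio of 0.753 (0.563 to 1.01) whose interval includes 1.

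**Figure D4:**
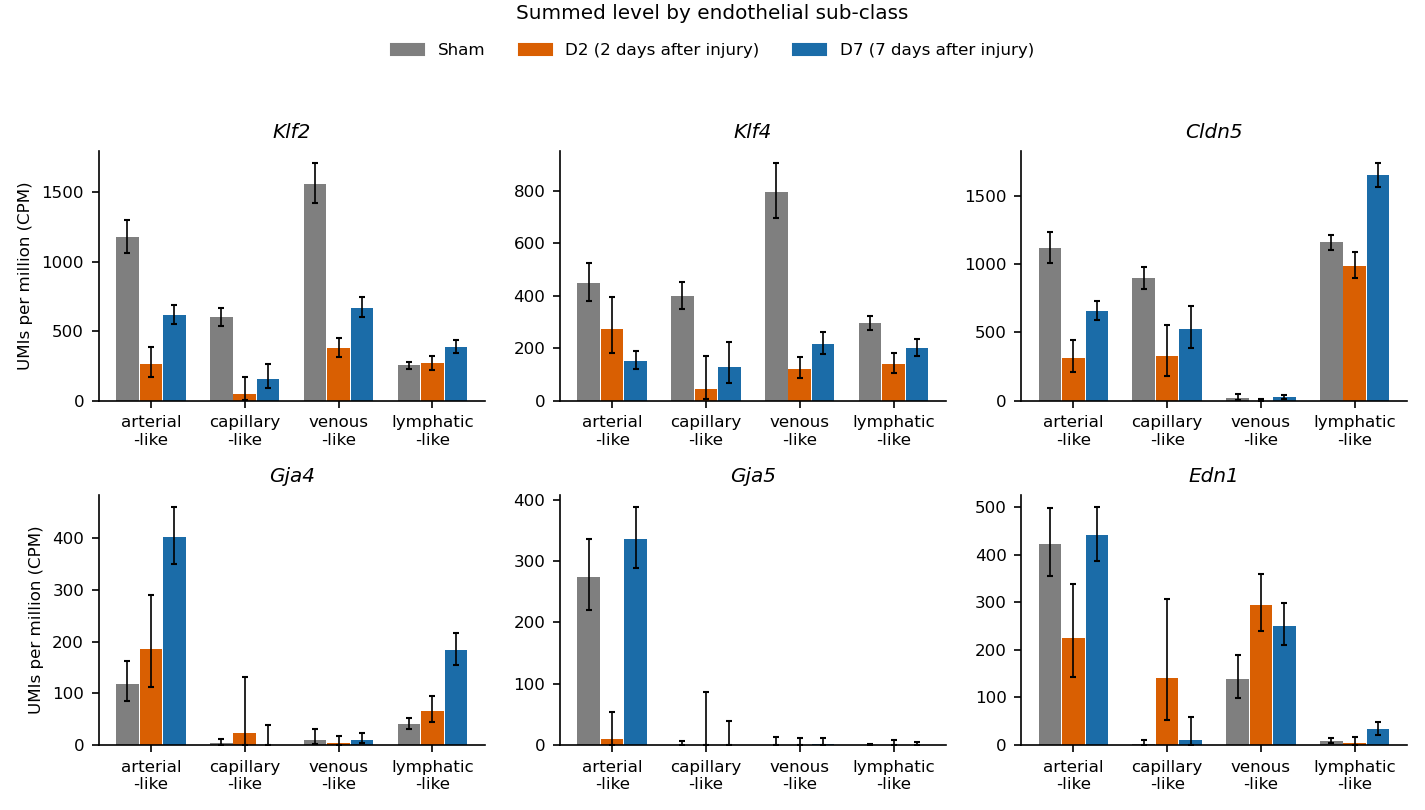
Summed level (CPM, linear axes starting at 0) of 6 genes in arterial-like, capillary-like, venous-like and lymphatic-like cells of each library. Bars are 1 pooled library each and lines are 95% intervals for counting error, which are wide at D2. Gja5 bars stand above 200 CPM in arterial-like cells of Sham and D7 only, and Gja4 at D7 is highest in arterial-like cells and next in lymphatic-like cells.

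Lymphatic endothelium, which lines the vessels that carry lymph, had levels that differed from those of blood endothelium in direction for some genes. Klf2 stood at 252 CPM in Sham (228 to 278) and 249 at D2 (207 to 297), while D7 stood at 453 (410.3 to 498). Sham and D2 overlapped and D7 was above both, at 1.79 times Sham (1.56 to 2.06). The 11 neutrophil markers summed to 992, 3283 and 2162 CPM in these cells, with Ly6g at 0 in each library and Cxcr2 and Hdc also at 0 in Sham, and their part in the Klf2 level was not tested. Klf4 stood at 290.4, 151 and 206 CPM, Sham being highest. Cldn5 stood at 1136, 947 and 1534 CPM, with D7 at 1.35 times Sham (1.26 to 1.45). Gja4 stood at 39.8 CPM in Sham (30.6 to 50.9) and 63.8 at D2 (43.6 to 90.0), with 154 for D7 (130.2 to 182). As in endothelial-like cells D7 was highest, at 3.88 times Sham (2.87 to 5.31). Cdh5 stood between 389 and 444 CPM, Nos3 between 41.9 and 65.9 and Cav1 between 550.1 and 798. Gja5 had no UMI in any library, which allows up to 1.89 CPM in Sham, 5.98 at D2 and 3.24 at D7, and Sox17 had 1 UMI in Sham and none after injury.

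By the 2-fold rule, 0 of the 7 genes measured in lymphatic-like cells were higher and 0 lower from Sham to D2, against 9.44% and 7.05% of all genes measured there. From Sham to D7, 1 was higher (Gja4) and 0 lower, against 4.19% and 4.24%. From D2 to D7, 1 was higher (Gja4) and 0 lower, against 3.12% and 3.14%. The D2 sums rest on 30 cells.

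The lymphatic-like levels also came from different cells in each library. Sub-cluster 0 held 208 Sham, 1 D2 and 18 D7 cells, whereas sub-cluster 4, led by Serpina3n, Tnc and Postn, held 13 Sham, 24 D2 and 97 D7 cells. Klf2 was not higher within them: in sub-cluster 4 it stood at 589 CPM in Sham, 288 at D2 and 429 at D7, a D7 ratio of 0.727 (0.546 to 0.983), and in sub-cluster 0 the ratio was 0.498 (0.225 to 0.966). The direction over the whole lymphatic-like class was the opposite of that within these 2 sub-clusters, while in sub-cluster 5 the interval included 1 (ratio 1.22, 0.729 to 1.93). The 13 Sham cells of sub 4 also had a dissociation-response sum of 11423 CPM, against 2760 at D7. Gja4 was higher at D7 within sub-cluster 4, at 81.3, 69.6 and 179 CPM (D7 ratio 2.20, 1.08 to 5.21), and within sub-cluster 5, where 25 UMIs in 12 D7 cells gave 566 CPM against 76.0 in Sham (ratio 7.45, 4.15 to 13.3). Cldn5 had a D7 ratio of 1.34 in sub-cluster 4 (1.11 to 1.62) and 1.44 in sub-cluster 0 (1.20 to 1.71), but 0.614 in sub-cluster 5 (0.441 to 0.835).

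Several of the 10 genes are shared with other cells of the artery. Klf2, which also keeps lymphocytes quiescent, stood at 1312 CPM in Sham, 1534 at D2 and 910 at D7 in neutrophil-like cells. It stood at 363, 538 and 586 CPM in T/NK/ILC-like cells and at 890.0, 436 and 720.4 in B-like cells. Sham was not the highest library in the first 2 of these classes. In fibroblast-like cells Klf2 stood at 727, 153 and 348 CPM, in monocyte/macrophage-like cells at 668, 340.1 and 251, and in smooth-muscle-like cells at 237, 58.7 and 205. Sham was highest in these 3 as it was in endothelial-like cells. The ratio of D7 to Sham was 0.479 in fibroblast-like (0.467 to 0.492) and 0.376 in monocyte/macrophage-like cells (0.362 to 0.391). These classes too were different mixtures in each library. Fibroblast-like cluster 8 held 1335 Sham, 9 D2 and 104 D7 cells, and cluster 1 held 23, 82 and 2730. Monocyte/macrophage-like cluster 12 held 750, 36 and 212, and cluster 0 held 15, 1845 and 1138. Neutrophil-like cluster 5 held 0, 1483 and 417. The part of this makeup in the levels of any of the 10 genes was not tested.

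Klf4, known in macrophages and in smooth muscle that loses its contractile state, had most of its transcripts outside the endothelium. It stood at 1118, 184 and 325 CPM in fibroblast-like cells and at 834, 299 and 262 in monocyte/macrophage-like cells. Fibroblast-like cells held 60.8% of the Klf4 UMIs of the Sham library and endothelial-like cells 3.57%. In smooth-muscle-like cells Klf4 stood at 146, 10.4 (3 UMIs in 16 cells) and 81.9 CPM, and Sham was again highest. The dissociation-response sum was 13673, 6998 and 13273 CPM in fibroblast-like cells and 18450.3, 14978 and 15142 in monocyte/macrophage-like cells, and its part in these differences was not tested.

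Cav1 and Gja4 were shared with smooth-muscle-like cells. Cav1 stood there at 701 CPM in Sham, 311 at D2 and 338 at D7, a D7 ratio of 0.482 (0.436 to 0.534), lower after injury as in endothelial-like cells. In fibroblast-like cells it went the other way at D2, at 67.5, 188 and 45.4 CPM. Gja4 stood at 57.8, 117 (34 UMIs in 16 cells) and 75.8 CPM in smooth-muscle-like cells. Most Edn1 in Sham came from outside the endothelium: fibroblast-like cells, at 45.0 CPM, held 69.4% of the Edn1 UMIs of that library, against 21.6% in endothelial-like cells. After injury fibroblast-like cells had 0.515 CPM at D2 (1 UMI) and 2.50 at D7. Sox17 was the most restricted, with 96.4%, 97.1% and 92.9% of the UMIs of each library in endothelial-like cells. For Nos3 that share was 66.7%, 58.0% and 63.6%, and for Cdh5 71.8%, 78.9% and 80.1%.

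**Figure D5:**
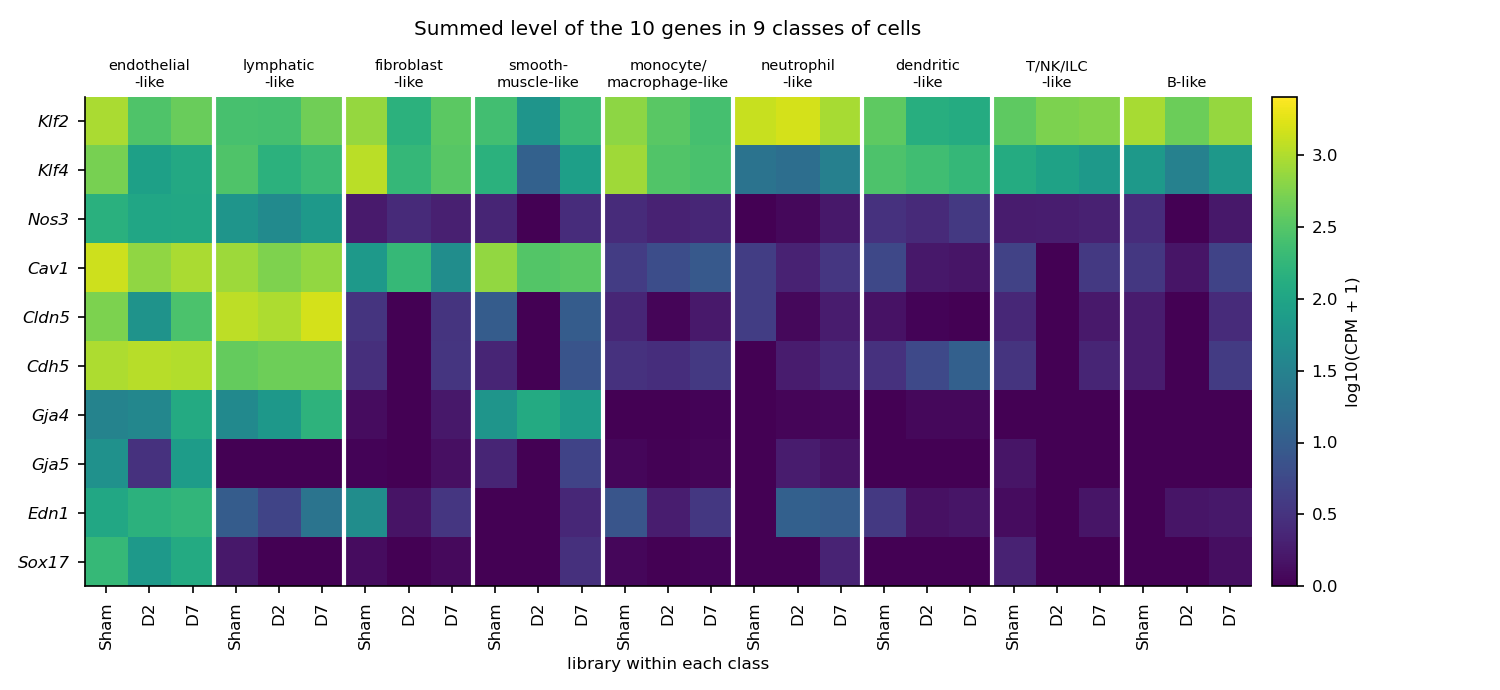
Level of the 10 genes (rows) in 9 classes of cells, each in the Sham, D2 and D7 libraries (columns), as log10(CPM + 1) in color. Klf2 and Klf4 are found across the classes, Cav1 also in smooth-muscle-like and fibroblast-like cells, Gja4 also in smooth-muscle-like cells, and Sox17, and Gja5 in Sham and D7, mainly in endothelial-like cells, with Edn1 also seen in Sham fibroblast-like cells.

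Outside the endothelium, counts are given for the classes in which at least 3 of the 10 genes reached the minimum. In fibroblast-like cells 3 did (Klf2, Klf4 and Cav1). From Sham to D2, 2 of them were lower and 1 higher, against 16.0% and 14.8% of all genes measured. From Sham to D7, 2 were lower and 0 higher, against 11.3% and 7.92%, and from D2 to D7, 1 was lower and 1 higher, against 6.17% and 6.52%. In smooth-muscle-like cells 4 reached it (Klf2, Klf4, Cav1 and Gja4). From Sham to D2, 3 were lower and 1 higher, against 17.9% and 16.9%, from Sham to D7, 1 was lower and 0 higher, against 8.3% and 10.4%, and from D2 to D7, 0 were lower and 2 higher, against 3.47% and 8.97%. The D2 sums rest on 92 fibroblast-like and 16 smooth-muscle-like cells.

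Other genes of the same pathways were read from lists in endothelial-like cells. Among 15 genes induced by disturbed flow or activation, 12 were measured from Sham to D2: 8 were higher, 1 lower and 3 neither, against 10.3% and 10.8% of all genes, with a median log2 ratio of 1.58 against 0.00 for all genes. The leukocyte adhesion receptor Sele stood at 1.59 CPM in Sham and 77.9 at D2. Esm1 was the 1 lower gene, at 73.3 and 5.47 CPM. Between Sham and D7, 7 of 12 were higher and 0 lower, against 5.86% and 6.49%. The median was 1.67 against 0.05, and Sele stood at 69.6 CPM. In lymphatic-like cells, 4 of 6 measured genes of this list were higher and 1 lower at D2, against 9.44% and 7.05% of all genes. At D7, 5 of 9 were higher there and 0 lower, against 4.19% and 4.24%. The part of free RNA and of leukocyte-led sub-clusters in the counts of endothelial-like cells was not tested. Genes induced by laminar flow other than the 10 were mostly neither: from Sham to D2, 1 of 8 was higher (the thioredoxin reductase Txnrd1, 59.0 to 124 CPM) and 1 lower (Slc9a3r2, 522 to 167 CPM), near the shares of all genes. At D7 against Sham, 1 of 9 was higher (the heme oxygenase Hmox1, 20.2 to 81.3 CPM) and 2 lower, against 5.86% and 6.49% of all genes.

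The flow-sensing and ERK5 to MEF2 chain, upstream of Klf2, had 0 higher and 3 lower of 15 measured from Sham to D2, against 10.3% of all genes higher and 10.8% lower. Its median log2 ratio was -0.28 against 0.00. The polycystin Pkd1 stood at 80.2 and 29.4 CPM and Mef2c at 725 and 280.2. At D7 against Sham, 1 of 15 was lower, near the 6.49% of all genes: the VEGF receptor Kdr, at 675 and 307 CPM. Tight junction partners had 0 higher and 3 lower of 7 from Sham to D2 (10.8% of all genes), led by the cingulin relative Cgnl1 (93.0 and 5.47 CPM) and the adhesion molecule Jam3 (94.1 and 18.5 CPM), and 2 lower of 7 from Sham to D7 (6.49%). Adherens junction partners had 2 lower of 8 in both pairs (10.8% and 6.49% of all genes), the scaffold Afdn and plakoglobin (Jup), the latter at 174 CPM (Sham), 72.5 (D2) and 56.9 (D7).

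The other caveolar genes included several that were lower, as Cav1 was. Of 7 measured, 3 were lower and 0 higher in both pairs, against 10.8% and 6.49% of all genes lower: Cav2 stood at 449, 163 and 208 CPM, Cavin1 at 651 and 299 and 279.7, and Cavin2 at 1123, 512 and 339.9. In the SoxF and Notch list 2 of 9 were lower from Sham to D2 against 10.8% of all genes, the Notch ligand Dll4 (72.3 and 21.9 CPM) and the co-receptor Nrp1 (809.8 and 256 CPM), and 1 of 9 (Nrp1, 337 CPM) at D7 against 6.49%. Dll4 stood at 65.3 CPM at D7. Of 7 nitric oxide genes, 2 were higher at D2 (Ddah1, which clears an inhibitor of Nos3, and the kinase Akt1) and 1 at D7 (Ddah1, 39.3 to 106 CPM), against 10.3% and 5.86% of all genes higher. The endothelin receptor Ednrb stood at 185 CPM in Sham, 37.6 at D2 and 43.5 at D7. The other gap junction gene measured, Gja1 (Cx43), stood at 122, 178 and 148 CPM.

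Genes with the most similar pattern were sought over 27 sums of 11 classes by library, among 7955 genes, by Pearson correlation of log2(CPM + 10). These sums share libraries and cell types, so the values describe likeness only. Nos3 was closest to Cyyr1 and Mmrn2 (both r = 0.99), Cldn5 to Stmn2 (0.99) and Fam189a2 (0.98), Cdh5 to Mmrn2 (0.9953) and Myct1 (0.993) and Sox17 to Lrrc3b (0.996) and Nr5a2 (0.993). Cav1 was closest to Fbxl7 and Ehd2 (both 0.97), Gja5 to Gkn3 (0.96) and Esm1 (0.94), Gja4 to Nts (0.94) and Angpt2 (0.93), and Edn1 to Galnt15 (0.94) and Jam2 (0.92). The factors found in many classes had lower values: Klf4 to Ahnak (0.89) and Cpq (0.87), and Klf2 to Rb1cc1 (0.85) and Zfp652 (0.80).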

How the data were processed

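Single-cell RNA was counted in 3 libraries (Sham, D2, D7), each pooled from 6 mice. The deposited values are raw UMI counts per gene and cell barcode, made by the authors with Cell Ranger (7.1.0 per the file headers, 7.2.0 per the submitters' processing notes) on mm10. Library totals were 39756684, 98260210 and 100571340 UMIs.

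Cells below 300 genes or 500 UMIs, or above 15% mitochondrial UMIs, were dropped. Doublets were removed with Scrublet in scanpy 1.11.5 at a score of 0.3, set after seeing the scores because the automatic threshold failed for Sham (105, 439 and 267 cells). Clusters (Leiden, resolution 1, and 0.8 within endothelium) left out the 10 genes, and were named from marker lists. Naming thresholds were set after seeing the data. Counts were summed per class and library, with exact Poisson intervals for levels and exact conditional binomial intervals for ratios. These cover counting error only. The ratio intervals were run on simulated Poisson counts, which share their assumption. That run cannot show how they hold where the UMIs of a gene gather in few cells. The comparisons are D2 with Sham, D7 with Sham and D7 with D2, with no test, because each group is 1 library. The genes named are the 10, the 2 furthest apart in each list and pair, and the 2 with the highest correlation to each of the 10; the further list genes beyond the 2-fold rule were named after their values were seen. Filters, doublets, clustering, summing, depth, free RNA and the minimum level were varied, and 2 of these alternatives were added after seeing the data. The 10 genes and the lists were chosen with earlier results of these data known. Cells in unnamed clusters outside the endothelium were not compared. Some values of single genes in the lists are not reported here.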

Additional observations from a re-analysis of the deposited data

Results flagged for a closer look

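The results here differ in direction between classes of cells under the same pair of libraries, each with a ratio whose counting interval excludes 1. None of these differences was tested, because each library is a single pool. The endothelial-like, lymphatic-like, fibroblast-like, monocyte/macrophage-like and neutrophil-like classes also held different mixtures of clusters in each library, so a ratio need not compare the same cells.

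From Sham to D2, Klf2 had a ratio of 0.312 in endothelial-like cells but 1.17 in neutrophil-like and 1.48 in T/NK/ILC-like cells. From Sham to D7 its ratio was 0.458 in endothelial-like cells, 1.79 in lymphatic-endothelial-like cells and 1.62 in T/NK/ILC-like cells. From D2 to D7 it was 1.47 in endothelial-like cells and below 1 in monocyte/macrophage-like (0.739), neutrophil-like (0.593) and dendritic-like cells (0.901).

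Klf4 showed the same contrast from D2 to D7, at 1.31 in endothelial-like cells against 0.878 in monocyte/macrophage-like, 0.795 in dendritic-like and 0.742 in T/NK/ILC-like cells. Cav1 had a ratio of D2 to Sham of 0.492 in endothelial-like and 2.78 in fibroblast-like cells, and of D7 to D2 of 1.33 and 0.241. In thinned endothelial-like cells the D7 to D2 ratio was 0.936 for Cav1 and 1.02 for Klf4, so these contrasts between classes depend on how cells of unequal depth are weighed. Cldn5 had a ratio of D7 to Sham of 0.509 in endothelial-like and 1.35 in lymphatic-endothelial-like cells. Within the lymphatic-like sub-clusters 0 and 4, Klf2 had D7 ratios of 0.498 and 0.727, below 1 as in endothelial-like cells.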

How the results depend on the processing

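The counts of genes apart in endothelial-like cells were recomputed under 11 alternative settings and 2 more added after seeing the data, which left out sub-clusters led by leukocyte transcripts or the shallow sub-cluster 8. The number of genes higher from D2 to D7 went from 3 to 5 when free RNA was subtracted, and to 4 without the leukocyte-led sub-clusters. The other counts stayed within 1.5 times of those reported under each of these alternatives. Single ratios in endothelial-like cells moved beyond their counting interval most often when cells were thinned to 1000 UMIs (21 of 29) or free RNA was subtracted (18 of 30). Over all alternatives the ratio of D2 to Sham ran from 0.146 to 0.435 for Klf2, from 0.0478 to 0.259 for Klf4, from 0.0991 to 0.168 for Cldn5 and from 0.487 to 0.634 for Cav1, and that of D7 to Sham for Gja4 from 3.32 to 4.595. The D2 to Sham ratio of Nos3 ran from 0.691 to 1.04, the latter with cells thinned to 1000 UMIs, so its direction depends on that setting. No D7 to D2 ratio could be had for Gja5 in thinned cells, where D2 had no UMI. With sub-clusters at Leiden resolution 1.5, 23 of 120 sub-class levels moved beyond their intervals. No paired analysis was possible because each group is 1 library. The number of cells limits the D2 values, with 91 endothelial-like cells there and 3 Gja5 UMIs, although their median depth was 12815 UMIs.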
